A study of Mus musculus with 6 samples.

Results

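10 genes that natural killer (NK) cells use to recognize targets, to receive cytokine signals and to hold their identity were examined in MCA205 tumors from mice that drank FF-10101 or water. The 10 genes were taken by name from the deposited table, in which they are 10 of 54309 gene identifiers, and all 10 were among the 13963 genes with enough reads to be tested. They comprise the activating receptors *Ncr1*, *Klrb1c* and *Klrk1*, the CD94 group *Klrc1*, *Klrd1* and *Klre1*, the transcription factors *Eomes* and *Tbx21*, the granule protein *Nkg7* and the cytokine receptor chain *Il2rb*. Their mean level was higher in the FF-10101 tumors for 9 of 10 genes, by 1.48-fold for *Ncr1* to 2.06-fold for *Klrb1c* apart from *Klrd1* at 1.09-fold, while *Tbx21* had a ratio of 0.990. None of these differences passed the test over all genes. The water group itself was split, and in 1 of its 3 tumors the 10 genes stood 1.80 to 5.32 times as high as the mean of the other 2.

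The study asked how FF-10101, a covalent inhibitor of the receptor tyrosine kinases FLT3 and CSF1R, leads to regression of transplanted tumors. MCA205 is a mouse fibrosarcoma cell line, and 1000000 of its cells were placed under the skin of the right flank of female C57BL/6J mice aged 7 weeks. The control group (3 tumors) drank milliQ water and the FF-10101 group (3 tumors) drank water holding 0.1 mg/mL of the compound, in both cases from day 1 until the tumors were taken on day 8. Whole tumors were sequenced without sorting, so in these samples a change in the number of NK cells, more or fewer, and a change in RNA per NK cell cannot be told apart. Each tumor is 1 biological replicate, named here by its group and number.

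NK cells are innate lymphocytes that kill transformed or infected cells without prior priming. They weigh signals from activating receptors, which bind stress-induced ligands, against signals from inhibitory receptors, which bind class I histocompatibility molecules on healthy cells. Interleukin-15, read through the chain encoded by *Il2rb*, keeps them alive, and the T-box factors encoded by *Eomes* and *Tbx21* direct their maturation. In solid tumors NK cells are usually few, and several of their receptors are also carried by activated CD8+ T cells, which share the T-box factors, NKG2D, the CD94 chain, *Nkg7* and *Il2rb* with them. Of the 10 genes, *Ncr1* is the one whose expression is closest to limited to NK cells and related innate lymphoid cells.

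To show the genes at the level of sequence, their promoters were read from RefSeq on the GRCm38.p6 build, 250 bases before and 50 bases after the annotated start. Entries were found for 8 of the 10 genes and not for *Klrd1* and *Il2rb*. Printed are 4 of the 6 promoters that hold letters to which RUNX or T-box factors, which act in NK cells, commonly bind. Those of *Klrb1c* and *Klrc1*, which also hold the RUNX letters, are not printed. The stretches are *Ncr1* at chr7:4337465-4337764 on the plus strand, *Klre1* at chr6:129577963-129578262 on the plus strand, *Nkg7* at chr7:43436888-43437187 on the plus strand and *Klrk1* at chr6:129623815-129624114 on the minus strand. Capitals mark TGTGGT (RUNX) or TCACAC (T-box), or their reverse complements ACCACA and GTGTGA.
Ncr1: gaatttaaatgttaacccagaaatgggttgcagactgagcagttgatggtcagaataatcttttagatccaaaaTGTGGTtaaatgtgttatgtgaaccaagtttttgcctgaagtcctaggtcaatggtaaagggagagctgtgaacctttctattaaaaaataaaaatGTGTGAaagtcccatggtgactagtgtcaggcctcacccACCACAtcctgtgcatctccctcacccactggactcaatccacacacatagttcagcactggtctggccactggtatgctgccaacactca
Klre1: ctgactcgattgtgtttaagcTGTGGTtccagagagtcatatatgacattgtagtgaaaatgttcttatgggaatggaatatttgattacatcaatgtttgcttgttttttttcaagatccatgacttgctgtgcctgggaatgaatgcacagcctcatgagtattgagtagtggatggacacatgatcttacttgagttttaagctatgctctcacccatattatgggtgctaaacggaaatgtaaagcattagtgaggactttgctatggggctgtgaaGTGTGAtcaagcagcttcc
Nkg7: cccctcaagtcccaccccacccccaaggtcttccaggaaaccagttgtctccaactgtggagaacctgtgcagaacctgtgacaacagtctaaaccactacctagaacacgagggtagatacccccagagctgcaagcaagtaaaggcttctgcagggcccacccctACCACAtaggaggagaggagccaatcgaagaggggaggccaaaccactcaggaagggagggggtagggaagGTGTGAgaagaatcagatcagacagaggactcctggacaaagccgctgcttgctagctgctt
Klrk1: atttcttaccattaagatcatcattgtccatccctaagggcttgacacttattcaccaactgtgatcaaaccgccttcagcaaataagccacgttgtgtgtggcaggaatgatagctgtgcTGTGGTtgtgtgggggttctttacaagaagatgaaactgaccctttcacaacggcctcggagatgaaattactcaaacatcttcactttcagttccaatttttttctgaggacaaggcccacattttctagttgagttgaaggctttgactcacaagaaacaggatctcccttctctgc

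The RUNX letters TGTGGT were found on either strand in 6 of the 8 promoters (*Ncr1*, *Klrb1c*, *Klrk1*, *Klrc1*, *Klre1* and *Nkg7*), against 16.8% of the 32851 promoters in the table. In *Ncr1* they occurred 2 times, beginning 176 and 41 bases before the start. The T-box letters TCACAC were found in 3 of the 8 (*Ncr1*, *Klre1* and *Nkg7*), against 14.5% of all promoters, beginning 80 bases before the start in *Ncr1* and 12 bases before it in *Nkg7*. In *Klre1* they lay downstream, beginning at base 32 of the transcript. No RUNX match overlapped a T-box match. The other 6 of the 8 spellings searched on both strands were TCACACC, a longer form of TCACAC that overlaps it (1 promoter, *Nkg7*, 3.98% of all), the ETS letters CAGGAAG (2, *Tbx21* and *Nkg7*, 13.3%) and GGAAGT (2, *Klrb1c* and *Tbx21*, 23.8%), which overlap in *Tbx21*, and the STAT letters TTCNNNGAA (1, *Nkg7*, 8.3%), TTCNGGAA (0, 5.48%) and TTCCGGAA (0, 0.712%). Matches describe these windows and are not evidence of binding.

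In the same annotation *Klre1*, *Klrd1*, *Klrk1*, *Klrc3*, *Klrc2* and *Klrc1* follow one another as neighboring protein-coding genes on chromosome 6, within the NK gene complex, where *Klrb1c* also lies, between *Klrb1* and *Klrb1b*. *Ncr1* and *Nkg7* lie on chromosome 7, *Eomes* on chromosome 9, *Tbx21* on chromosome 11 and *Il2rb* on chromosome 15.

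Total reads per tumor ranged from 9143806 to 13258258, and the 10 genes had between 32 and 2592 reads in a tumor, so a count of 0, which allows up to 3 reads or a normalized count of 2.29 to 3.38, did not arise for them. Over all genes limma called 6 (4 higher and 2 lower with FF-10101) at an adjusted p of 0.05, and 3051 when Control 1 was left out, so Control 1 stood apart from the other control tumors across the transcriptome. Fibroblast genes typical of the tumor line were abundant in both groups, with *Col1a1* at 25323 normalized counts in control and 33731 in FF-10101 tumors. *Csf1r*, which encodes the kinase the compound is meant to inhibit, stood at 5639 and 4442 (log2 fold change -0.25, adjusted p = 0.735 in limma, and 0.14 without Control 1, adjusted p = 0.658). Because Control 1 stood apart, the differences of the 10 genes are given with and without it.

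The first comparison asked whether the activating receptors differed with treatment. *Ncr1* (ENSMUSG00000062524) encodes NKp46, a receptor of the natural cytotoxicity family. Its normalized counts were 157.6, 63.0 and 58.8 in Control 1, 2 and 3, and 97.0, 158.5 and 157.3 in FF-10101 1, 2 and 3. Control 1 lay with the FF-10101 tumors, the other 2 control tumors lay below all of them, and the groups overlapped. The mean was 93.1 ± 55.9 in control and 138 ± 35.2 in FF-10101 tumors (SD, n = 3), a log2 fold change of 0.68 (SE 0.41, 95% interval -0.27 to 1.62, adjusted p = 0.437 in limma, exact permutation p = 0.3).

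*Klrb1c* (ENSMUSG00000030325) encodes NK1.1, the activating lectin by which NK cells of C57BL/6 mice are commonly gated. It was at 386.1, 122.8 and 82.1 in Control 1 to 3 and at 203.9, 488.5 and 522.7 in FF-10101 1 to 3. FF-10101 2 and 3 exceeded every control tumor, whereas FF-10101 1 lay between Control 1 and the other 2. The log2 fold change of 1.24 (SE 0.59, 95% interval -0.11 to 2.595, adjusted p = 0.338 in limma, exact permutation p = 0.2) was the largest of the 10 genes. About 20.3% of the 31-base words of its transcripts occur in another gene, 14.5% in the predicted gene *Gm44511*, so part of its reads could be split with that gene.

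*Klrk1* (ENSMUSG00000030149) encodes NKG2D, which binds stress-induced ligands and is shared with CD8+ T cells. Its normalized counts were 701.3, 202.1 and 210.8 in the control tumors and 370.4, 639.4 and 750.2 in the FF-10101 tumors. Control 1 exceeded FF-10101 1 and 2, and Control 2 and 3 were the lowest of the 6 tumors. The log2 fold change was 0.85 (SE 0.49, adjusted p = 0.415 in limma, exact permutation p = 0.3).

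**Figure D1:**
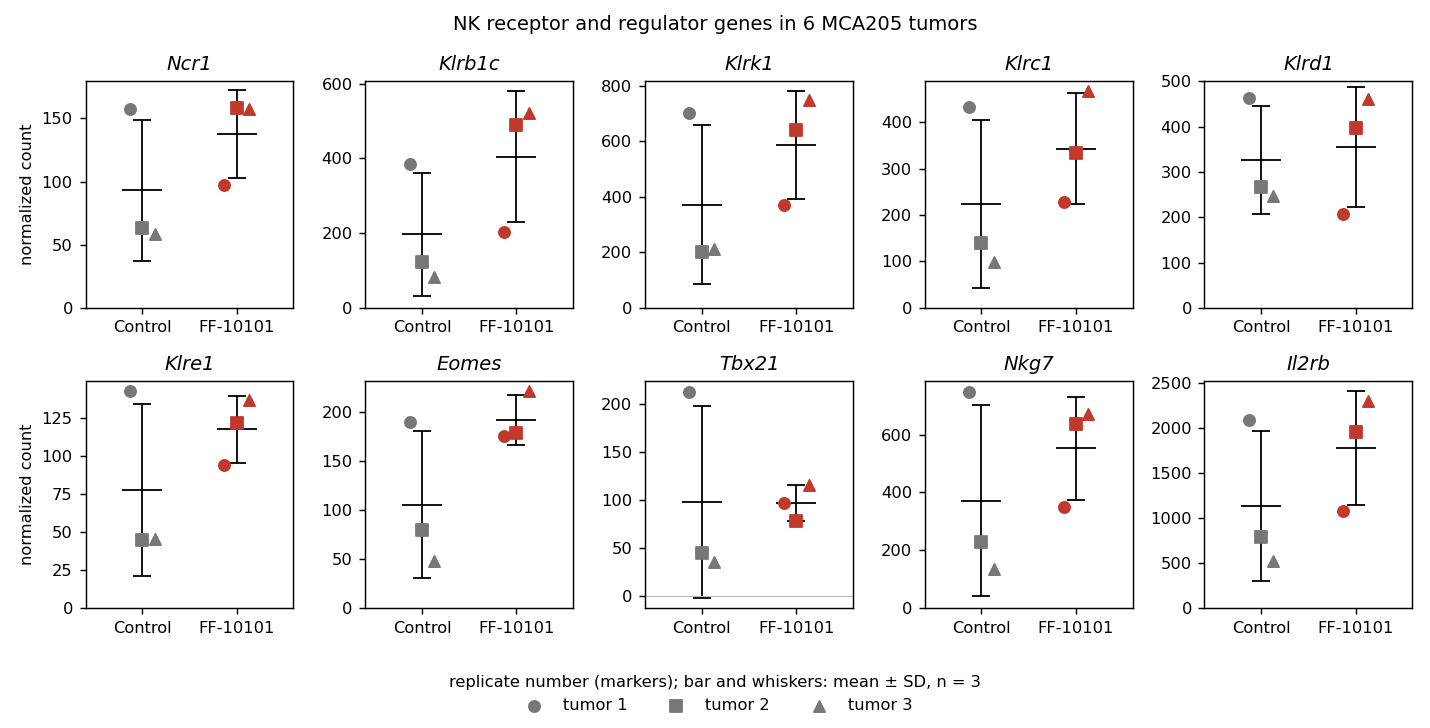
Normalized counts (vertical axes, each starting at or just below 0) of the 10 genes in 3 control tumors (gray) and 3 FF-10101 tumors (red). Marker shapes give the tumor number, and bars with whiskers give the mean and SD (n = 3). In each panel Control 1 stands above the other 2 control tumors, by 1.80 times their mean for *Klrd1* to 5.32 times for *Tbx21*, and the groups overlap.

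The CD94 group was compared next. CD94, encoded by *Klrd1*, pairs with NKG2A, encoded by *Klrc1*, to form an inhibitory receptor for the nonclassical class I molecule Qa-1, and KLRE1 is a related lectin that pairs with members of the KLRI family. *Klrc1* (ENSMUSG00000030167) was at 432.3, 140.2 and 98.7 in the control tumors and at 228.4, 333.3 and 467.5 in the FF-10101 tumors. Control 1 was surpassed by FF-10101 3 alone, and the log2 fold change was 0.85 (SE 0.52, adjusted p = 0.443 in limma, exact permutation p = 0.4). Since 54.5% of the 31-base words of *Klrc1* occur in another gene, 50.8% in *Klrc2*, the assignment of its reads is uncertain.

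*Klrd1* (ENSMUSG00000030165) was the gene with the smallest log2 fold change, while the group means of *Tbx21* lay closer together. Its normalized counts were 462.6, 266.2 and 247.4 in the control tumors and 207.7, 396.3 and 461.3 in the FF-10101 tumors. The highest value was in Control 1 and the lowest was in FF-10101 1, so the 2 groups spanned nearly the same range. The log2 fold change was 0.11 (SE 0.35, adjusted p = 0.897 in limma, exact permutation p = 1), with a 95% interval from -0.71 to 0.92 that leaves room for changes in either direction.

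*Klre1* (ENSMUSG00000050241) was at 143.0, 44.6 and 45.5 in the control tumors and at 93.9, 121.6 and 136.9 in the FF-10101 tumors. Control 1 was the highest of the 6 tumors, and the lowest FF-10101 tumor was 2.07 times the higher of Control 2 and 3. The log2 fold change was 0.80 (SE 0.45, adjusted p = 0.410 in limma, exact permutation p = 0.4).

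For the transcription factors, the comparison concerned EOMES and T-BET, which bind the same T-box letters and act at successive stages of NK maturation and in effector CD8+ T cells. *Eomes* (ENSMUSG00000032446) was at 190.2, 79.3 and 47.7 in the control tumors and at 175.7, 179.1 and 222.2 in the FF-10101 tumors. The 3 FF-10101 tumors lay close together, and Control 1 lay among them. The mean was 106 ± 74.9 in control and 192 ± 25.9 in FF-10101 tumors (SD, n = 3), a log2 fold change of 1.08 (SE 0.45, 95% interval 0.03 to 2.13). In limma *Eomes* had p = 0.0448 before and 0.300 after adjustment, and the exact permutation p was 0.3.

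*Tbx21* (ENSMUSG00000001444) was at 212.7, 44.6 and 35.5 in the control tumors and at 96.2, 78.2 and 115.6 in the FF-10101 tumors. Control 1 was the highest tumor, at 2.20 times the FF-10101 mean, and the other 2 control tumors were the lowest. The group means of 97.6 ± 99.8 and 96.6 ± 18.7 (SD, n = 3) differed in the opposite direction from the log2 fold change of 0.45 (SE 0.62, 95% interval -0.98 to 1.87, adjusted p = 0.740 in limma, exact permutation p = 1), since the log scale gives the single high tumor less weight.

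Within a tumor the 2 factors can be set against each other, which nearly cancels the depth and scaling of that tumor. With 1 added to each normalized count, the ratio of *Eomes* to *Tbx21* was 0.895, 1.76 and 1.33 in the control tumors and 1.82, 2.28 and 1.92 in the FF-10101 tumors. All 3 FF-10101 tumors stood above all 3 control tumors, Control 1 included, with means of 1.33 ± 0.434 and 2.0 ± 0.241 (SD, n = 3). The exact permutation p of 0.1 is the smallest that 3 tumors against 3 allow, and ratios of 2 tested genes drawn from the whole table separated the groups in 20.7% of 97475703 pairs, so the separation of one ratio is common here.

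The last 2 genes report killing machinery and cytokine input. *Nkg7* (ENSMUSG00000004612) encodes a membrane protein of cytotoxic granules that is needed for efficient degranulation. It was at 748.6, 228.2 and 135.3 in the control tumors and at 349.0, 635.1 and 672.0 in the FF-10101 tumors. Control 1 was again the highest tumor and the log2 fold change was 0.89 (SE 0.58, adjusted p = 0.466 in limma, exact permutation p = 0.4).

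*Il2rb* (ENSMUSG00000068227) encodes CD122, the signaling chain shared by the receptors for interleukin-2 and interleukin-15. Its normalized counts were 2088, 791 and 521 in the control tumors and 1075, 1957 and 2304 in the FF-10101 tumors. FF-10101 1 was the lowest treated tumor but stood 1.36 times as high as Control 2. The log2 fold change was 0.83 (SE 0.50, adjusted p = 0.433 in limma, exact permutation p = 0.3).

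Over the 10 genes, 0 were called at an adjusted p of 0.05 by limma, against 0.0430% of all genes tested (0.0286% called higher), and limma-voom on the recovered reads also called 0. *Eomes* alone had an unadjusted p under 0.05, against 16.3% of all genes tested (8.77% higher). The log2 fold change was above 0 for all 10, against 51.9% of all genes, and its median was 0.84, against 0.02 over all genes. The groups overlapped for all 10 genes, while 20.2% of all genes tested separated the groups in one direction or the other.

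When Control 1 was left out, limma called 9 of the 10 genes higher with FF-10101 and *Klrd1* was not called, against 12.0% of all genes called higher in that fit and 9.88% called lower. The log2 fold changes that passed ran from 1.13 for *Ncr1* (SE 0.27, adjusted p = 0.0239) to 1.88 for *Klrb1c* (SE 0.40, adjusted p = 0.0155). *Eomes* had 1.62 (SE 0.26, adjusted p = 0.00622), *Klrk1* 1.44, *Klrc1* 1.48, *Klre1* 1.35, *Tbx21* 1.24, *Nkg7* 1.59 and *Il2rb* 1.40, with adjusted p between those of *Eomes* and *Ncr1*. *Klrd1* had 0.39 (SE 0.31, adjusted p = 0.402). For 9 of the 10 genes, *Klrd1* again excepted, all 3 FF-10101 tumors lay above both Control 2 and Control 3, a pattern met by 28.4% of all genes. The fit without Control 1 compares 2 tumors with 3, and the labels give no reason to leave that tumor out. Control 1 was singled out after the values were seen and was the highest control tumor for each of the 10 genes. Leaving it out therefore raises their differences by construction, and these calls are not separate support for a difference. Leaving out any other single tumor called 0 of the 10 genes. Without Control 3 the median log2 fold change fell to 0.42, with 0.36 for *Nkg7*, 0.40 for *Il2rb* and 0.63 for *Eomes*.

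**Figure D2:**
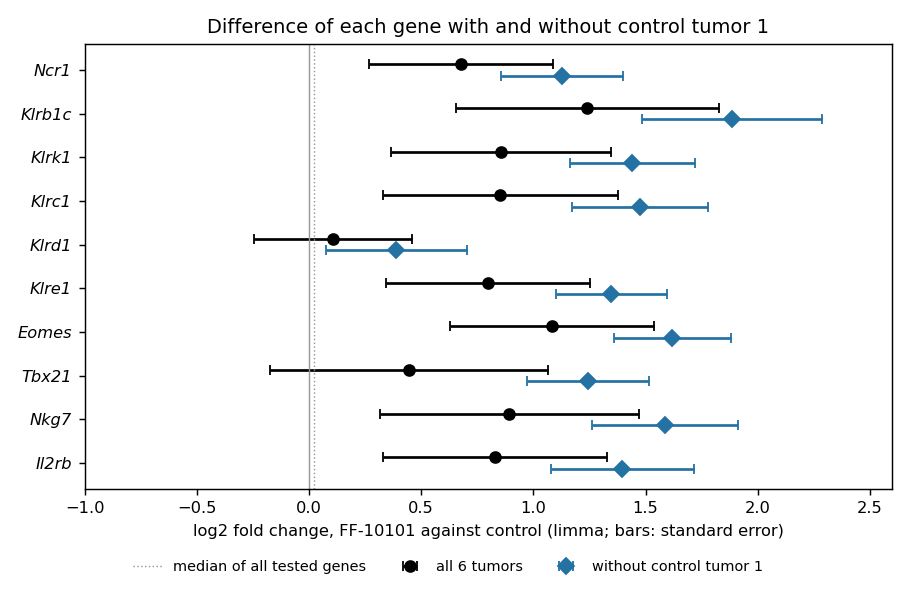
Log2 fold change of each gene, FF-10101 against control (horizontal axis, log2 units), from limma with all 6 tumors (black circles) and without Control 1 (blue diamonds); bars are standard errors and the dotted line is the median of all tested genes. With all tumors the values run from 0.11 for *Klrd1* to 1.24 for *Klrb1c*, and all 10 shift upward when Control 1 is left out.

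The spread between tumors was also compared. In the control group the coefficient of variation of the 10 genes ran from 36.6% for *Klrd1* to 102% for *Tbx21*, whereas counting error alone would give 3.13% to 12.0%. In the FF-10101 group it ran from 13.5% for *Eomes* to 43.2% for *Klrb1c* and was lower than in control for 9 of the 10 genes, *Klrd1* being the exception, against 68.7% of all genes tested. Within the FF-10101 group the order was nearly fixed, with FF-10101 1 the lowest for 9 genes (all but *Tbx21*, whose lowest was FF-10101 2) and FF-10101 3 the highest for 9 (all but *Ncr1*).

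The levels of the 10 genes were then compared with each other over the 6 tumors. Over their 45 pairs Pearson's r of the log2 values had a median of 0.94 and ran from 0.59 for *Klrd1* with *Eomes* to 0.99 for *Ncr1* with *Klrk1*. These are descriptions over 6 tumors that share 1 high and 2 low control tumors, and 9.67% of the 11503 genes whose mean normalized count reached 50 correlated above 0.9 with the mean of the 10 genes. That mean, standardized gene by gene, was 0.90, -0.92 and -1.32 in Control 1 to 3 and -0.16, 0.60 and 0.89 in FF-10101 1 to 3. The 8 genes outside the lists whose pattern was most like it were *Atp2b4* (r = 0.999), *Padi2*, *Cst7*, *Vps41*, *Acsl1*, *Slc31a1*, *Galns* and *Scarb2* (r = 0.996). Of these, *Cst7* encodes cystatin F, an inhibitor of granule proteases in cytotoxic lymphocytes.

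Ratios to *Klrd1* within each tumor are given as a description with no test, since *Klrd1* was taken as denominator for its small difference. In these ratios too, 1 was added to each normalized count. The genes *Ncr1*, *Klrb1c*, *Klrk1*, *Eomes* and *Il2rb* each stood higher relative to it in all 3 FF-10101 tumors than in any control tumor. The ratio of *Il2rb* to *Klrd1* was 4.51, 2.96 and 2.10 in the control tumors and 5.16, 4.93 and 4.99 in the FF-10101 tumors. The ratio of *Klrb1c* to *Klrd1* was 0.835, 0.463 and 0.335 in the control tumors and 0.982, 1.23 and 1.13 in the FF-10101 tumors. With *Eomes* over *Tbx21* and *Klrb1c* over *Il2rb*, 7 of the 45 ratios separated the groups, against 20.7% of all gene pairs, and 5 of the 7 share *Klrd1*. The ratio of *Klrc1* to its partner chain *Klrd1* was 0.934, 0.528 and 0.402 in the control tumors and 1.10, 0.842 and 1.01 in the FF-10101 tumors, and FF-10101 2 lay below Control 1.

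Levels of different genes were compared per kilobase of the longest annotated coding transcript. In the FF-10101 tumors *Nkg7* (627 ± 201 normalized counts per kilobase), *Il2rb* (424 ± 151) and *Klrd1* (386 ± 143) stood highest. *Klrk1* (184 ± 61.1), *Klrc1* (173 ± 60.4) and *Klrb1c* (154 ± 66.7) followed. *Ncr1* (92.0 ± 23.5), *Klre1* (90.8 ± 16.8), *Eomes* (54.0 ± 7.29) and *Tbx21* (38.8 ± 7.52) were lowest (SD, n = 3). Of neighbors in this order, *Il2rb* and *Klrd1*, *Klrk1* and *Klrc1*, *Klrc1* and *Klrb1c*, *Klrb1c* and *Ncr1*, and *Ncr1* and *Klre1* differed by less than the larger of their SDs, and the other neighbors by more. In the control tumors the order was the same except that *Klrd1* (354 ± 130) stood above *Il2rb* (270 ± 200) and *Tbx21* (39.2 ± 40.1) above *Eomes* (29.7 ± 21.0), both within the spread. With the median instead of the longest transcript length, *Klrk1* (462), *Klrc1* (456) and *Klrb1c* (317) in the FF-10101 tumors came near *Klrd1* (397), so the place of these genes depends on the transcript taken.

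**Figure D3:**
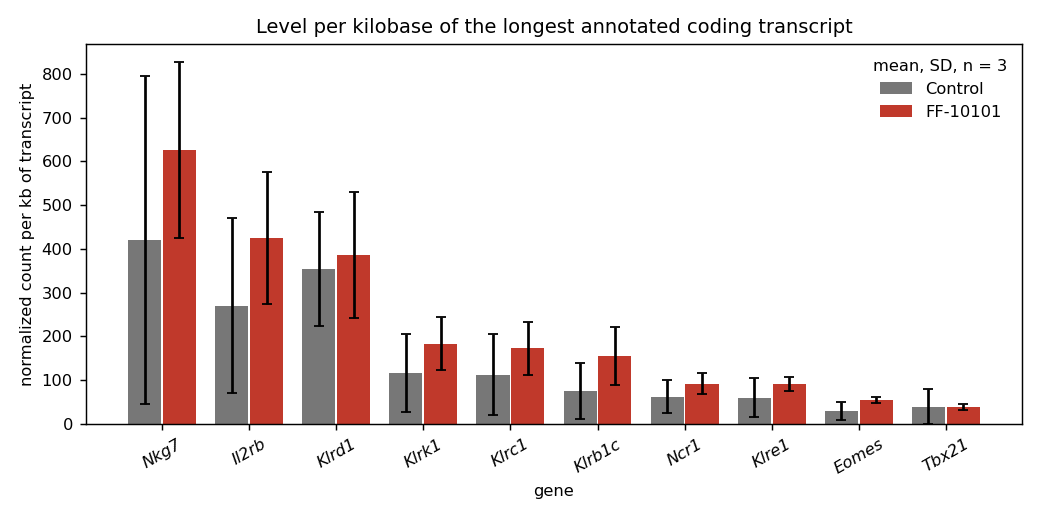
Mean normalized count per kilobase of the longest annotated coding transcript (vertical axis, from 0) for each gene in control (gray) and FF-10101 (red) tumors, ordered by the FF-10101 mean; error bars are SD (n = 3). The bars fall from *Nkg7* (627 in FF-10101 tumors) to *Tbx21* (38.8), and the control error bars are the wider for most genes.

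Because activated CD8+ T cells share many of the 10 genes, markers of other cells were examined beside them. *Cd8a* and *Cd8b1*, which define CD8+ T cells, followed the mean of the 10 genes with r of 0.996 each over the 6 tumors. Their summed normalized counts were 547, 111 and 95.4 in the control tumors and 246, 458 and 546 in the FF-10101 tumors, again high in Control 1 and lowest in Control 2 and 3. The median log2 fold change of these CD8 genes was 1.15, and 1.97 without Control 1, against 0.84 and 1.42 for the 10 NK genes. Of 10 general T cell genes, 8 had a log2 fold change above 0 with a median of 0.31. Limma called 0 of them, against 0.0430% of all genes (0 at an unadjusted p under 0.05, against 16.3%). Without Control 1 both CD8 genes and 2 of the 10 T cell genes (*Cd28* and *Themis*) were called higher, against 12.0% of all genes. The part of CD8+ T cells in the levels of the shared genes was not tested.

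Set against *Cd3e*, a chain of the T cell receptor complex, *Ncr1* stood at 0.633, 0.753 and 0.791 in the control tumors and at 0.948, 0.764 and 0.717 in the FF-10101 tumors. These ratios overlapped between groups. *Klrb1c* over *Cd3e* was 1.55, 1.47 and 1.10 in the control tumors and 1.99, 2.36 and 2.38 in the FF-10101 tumors, without overlap, as were 20.7% of the ratios of all gene pairs.

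Set against *Ptprc*, which encodes the pan-leukocyte antigen CD45, 3 of the 10 genes (*Ncr1*, *Klre1* and *Eomes*) stood higher in all 3 FF-10101 tumors than in any control tumor, against 5.34% of all genes tested. *Ncr1* was at 4.87%, 4.37% and 5.005% of the *Ptprc* count in the control tumors and at 5.57%, 6.80% and 5.53% in the FF-10101 tumors. Control 3 had 53 *Ncr1* reads, and counting error at the mean control reads was 10.9%, so this gap is not beyond counting error. Nor is that of *Klre1* (4.42% in Control 1 and 4.81% in FF-10101 3, counting error 12.0%). *Eomes* was at 5.88%, 5.50% and 4.06% and at 10.1%, 7.69% and 7.81%. Control 1 was still the highest control tumor on this scale for 8 of the 10 genes, *Ncr1* and *Klrd1* being the exceptions. *Klrd1* went the other way, at 14.3%, 18.4% and 21.1% in the control tumors and 11.9%, 17.01% and 16.2% in the FF-10101 tumors, with overlap. *Ptprc* itself was at 3237, 1443 and 1175 and at 1741, 2330 and 2844 normalized counts, highest in Control 1. Its log2 fold change was 0.36 (adjusted p = 0.650 in limma), and 0.79 without Control 1 (adjusted p = 0.0327), where it too was called higher.

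Markers of related innate cells were also present. The 5 genes listed for type 1 innate lymphoid cells, which share *Ncr1*, *Klrb1c* and *Tbx21* with NK cells, had 4 log2 fold changes above 0 and 1 below, with a median of 0.84. Limma called 0 of them, against 0.0430% of all genes (2 were higher at an unadjusted p under 0.05, against 8.77%). Without Control 1 their median was 1.29 and 4 of the 5 were called higher, against 12.0% of all genes. *Cd200r1* was the gene below 0 (log2 fold change -0.42, adjusted p = 0.570 in limma), and *Itga1*, their adhesion marker, stood at 248 and 564 normalized counts (log2 fold change 1.46, adjusted p = 0.258 in limma). The summed counts of this list were 1404 to 3485 in control and 3112 to 3775 in FF-10101 tumors, though *Itga1* and the other genes are not limited to these cells. Their part in the results was not tested. Among the genes listed for other innate and gamma delta T cells, *Il22* and *Il17a* were at 0 in every tumor, which allows up to 3 reads in each. Limma called 0 (0.0430% of all genes) of the tested genes for CD4+ T cells (1 gene, log2 fold change 0.36), gamma delta T cells (4, median 0.68), type 2 and 3 innate lymphoid cells (2, 0.38), B cells (1, -0.23), dendritic cells (5, 0.26) and fibroblasts (5, 0.52). In limma 1 gene each of the gamma delta T cell and the type 2 and 3 innate lymphoid lists was higher at an unadjusted p under 0.05 (8.77% of all genes). The 2 type 2 and 3 innate lymphoid genes went opposite ways. All FF-10101 tumors lay above all control tumors for *Il1rl1* (log2 fold change 1.44, 10.9% of all genes did so) and below them for *Areg* (-0.67, 9.37%). *Il1rl1* stood at 2707 and 6199 mean normalized counts, above *Ptprc* at 1952 and 2305. Without Control 1, 1 gamma delta T cell gene (*Sox13*), 1 type 2 and 3 innate lymphoid gene (*Il1rl1*), 2 dendritic cell genes (*Clec9a* and *Itgax*) and 2 fibroblast genes (*Col1a2* and *Thy1*) were called higher, against 12.0% of all genes.

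Macrophage, endothelial and neutrophil genes were read in the same tumors. Of 8 macrophage genes 7 had a log2 fold change below 0, with a median of -0.68, and for 5 of them all FF-10101 tumors lay below all control tumors (9.37% of all genes did so). Their summed counts were 63327, 38820 and 37382 in the control tumors and 22405, 31080 and 31673 in the FF-10101 tumors, so Control 1 was high in this list too. Endothelial genes had 4 of 4 log2 fold changes above 0 with a median of 1.13, and neutrophil genes 4 of 4 with a median of 1.77. Limma called 0 genes of these 3 lists, against 0.0430% of all genes. Of the macrophage, endothelial and neutrophil genes, 5, 4 and 4 had an unadjusted p under 0.05 in limma, against 16.3% of all genes. Without Control 1, 3 of the 8 macrophage genes were called lower (9.88% of all genes), and 4 of 4 endothelial and 4 of 4 neutrophil genes were called higher (12.0%).

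**Figure D4:**
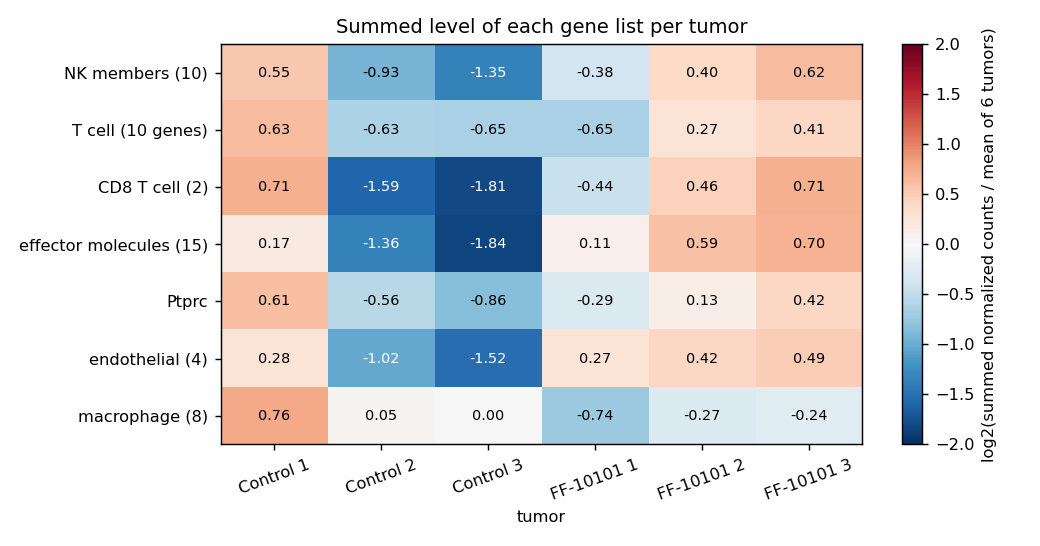
Summed normalized counts of each gene list in each tumor, as log2 of the ratio to the mean of the 6 tumors (color and printed value; the number of genes is in parentheses). The 10 NK genes stand at 0.55 in Control 1 and -0.93 and -1.35 in Control 2 and 3, the CD8+ T cell genes share that order, and the macrophage genes are highest in Control 1 and lowest in FF-10101 1.

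The other genes of NK recognition and function were described from 7 lists holding 123 genes, of which 119 matched an identifier and 104 were tested. Of the 104, 87 had a log2 fold change above 0 and 17 below. Limma and limma-voom each called 0 of the 104, where limma called 0.0430% of all genes. At an unadjusted p under 0.05 in limma, 17 were higher and 1 was lower, against 16.3% of all genes (8.77% higher). For 9 of the 104 all FF-10101 tumors lay above all control tumors and for 1 below, against 10.9% and 9.37% of all genes. Without Control 1, limma called 48 higher and 1 lower, against 12.0% and 9.88% of all genes.

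Among 26 further genes listed as NK receptors, not all of them limited to NK cells, 22 had a log2 fold change above 0, with a median of 0.67. The groups did not overlap for 3 of the 26, all higher, a share near the 10.9% of all genes. *Itga2*, which encodes the NK and platelet integrin CD49b, was at 75.4, 82.6 and 52.1 in the control tumors and at 100.8, 177 and 142 in the FF-10101 tumors (log2 fold change 0.98, SE 0.29, adjusted p = 0.229 in limma). Control 1 was not high for *Itga2*, in contrast to the 10 genes. *Klra5* (7.02 ± 1.74 and 16.8 ± 3.39 normalized counts, SD, n = 3) and *Klra6* (10.7 ± 2.49 and 20.5 ± 10.0), members of the Ly49 receptor family, were both near the low limit of the test and share sequence with other Ly49 genes. Without Control 1, 8 of the 26 were called higher, against 12.0% of all genes. The Fc receptor gene *Fcgr4*, at 1794 and 2197 mean normalized counts, was among the 8.

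The ligands of the receptors gave no common direction, with 7 of 10 tested genes above 0 and a median of 0.13. *H2-T23*, which encodes Qa-1, the ligand of CD94 with NKG2A, was at 6844, 2456 and 2313 in the control tumors and at 5351, 5543 and 6256 in the FF-10101 tumors. Control 1 was the highest, as in *Klre1* and *Nkg7*, and the log2 fold change was 0.75 (SE 0.39, adjusted p = 0.367 in limma; 1.26 without Control 1, adjusted p = 0.00115). *Ulbp1*, which encodes the NKG2D ligand MULT1, ran the other way, at 268, 917 and 790 in the control tumors and 419, 402 and 414 in the FF-10101 tumors. It was lowest in Control 1, in which *Klrk1* was high, and its log2 fold change was -0.49 (SE 0.42, adjusted p = 0.578 in limma; -1.05 without Control 1, adjusted p = 0.00338).

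Of the other NKG2D ligands, *Raet1e* (32.2 ± 8.12 and 46.1 ± 1.37 normalized counts, SD, n = 3) was higher in every FF-10101 tumor (log2 fold change 0.54, adjusted p = 0.427 in limma) and *Raet1d* was at 42.6 ± 12.6 and 36.9 ± 5.09. *H60b* and *H60c* were too low to be tested. *Cfp*, which encodes properdin, a complement factor described as a ligand of NKp46, was at 2918, 1604 and 1957 in the control tumors and 753, 981 and 1413 in the FF-10101 tumors. All FF-10101 tumors were below all control tumors for *Cfp* (log2 fold change -1.04, SE 0.29, adjusted p = 0.229 in limma). *Cfp* is also made by myeloid cells, whose markers are given above.

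The signaling partners of the receptors were described next. The adaptors of NKG2D were at 123 ± 59.2 and 113 ± 22.1 normalized counts for *Hcst*, which encodes DAP10 (log2 fold change -0.04, adjusted p = 0.964 in limma, and 0.33 without Control 1, adjusted p = 0.359), and at 3367 ± 871 and 2624 ± 742 for *Tyrobp*, which encodes DAP12 and is also abundant in myeloid cells (-0.37, adjusted p = 0.514). Of 15 adaptor and signaling genes 10 had a log2 fold change above 0, with a median of 0.12. Without Control 1 the median was 0.55 and 7 of the 15 were called higher, against 12.0% of all genes.

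Of the cytokine genes, 14 of 16 were above 0, with a median of 0.49. Without Control 1 the median was 0.72 and 8 of the 16 were called higher, among them *Il15*, *Il2rg* and *Il18rap*, against 12.0% of all genes. *Il15* was at 130 ± 48.6 and 170 ± 12.4 normalized counts (SD, n = 3; log2 fold change 0.45, adjusted p = 0.455 in limma). *Il15ra*, whose product presents interleukin-15 to the chain encoded by *Il2rb*, was at 181, 177 and 246 in the control tumors and 326, 303 and 261 in the FF-10101 tumors, without overlap (0.57, SE 0.20, adjusted p = 0.253). *Il2rg*, the common chain that pairs with *Il2rb*, was at 2703, 761 and 570 and at 1315, 1721 and 1791, with Control 1 the highest (0.60, SE 0.52, adjusted p = 0.583). *Il18rap*, an accessory chain of the interleukin-18 receptor of NK and T cells, was at 391, 206 and 172 and at 423, 572 and 613, the FF-10101 tumors all above Control 1 (1.14, SE 0.31, adjusted p = 0.229).

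Among 14 effector genes 13 were above 0, with a median of 1.31, against 0.84 for the 10 receptor and regulator genes. *Ccl5*, a chemokine of NK and effector T cells, was at 3177, 756 and 824 in the control tumors and 3716, 5566 and 4748 in the FF-10101 tumors, without overlap (log2 fold change 1.88, SE 0.51, adjusted p = 0.229 in limma). Granzyme and cytokine genes overlapped between groups, with *Gzma* at 817 and 2136 mean normalized counts (1.64, SE 0.55, adjusted p = 0.245), *Gzmb* at 662 and 1190 (0.99, SE 0.41, adjusted p = 0.293) and *Ifng* at 60.8 and 145 (1.99, SE 0.80, adjusted p = 0.290). Of the 14, 7 were higher at an unadjusted p under 0.05, against 8.77% of all genes. Without Control 1 the median was 2.09, against 1.42 for the 10 genes, and 13 of the 14 were called higher, *Xcl1* being the exception, against 12.0% of all genes.

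Of 14 further transcriptional regulators 13 were above 0, with a median of 0.38, and *Id2*, which is needed for NK development, was at 936 and 1340 normalized counts (log2 fold change 0.63, SE 0.35, adjusted p = 0.393 in limma). *Ikzf2* alone was below 0. Without Control 1 the median was 0.80 and 6 of the 14 were called higher, *Id2* among them. Of 9 homing receptors 8 were above 0, with a median of 0.37. Without Control 1 their median was 0.98 and 5 of the 9 were called higher, *S1pr1* and *Cxcr4* among them, where 12.0% of all genes were called higher. *S1pr1*, which guides lymphocyte exit and is also endothelial, was at 1195, 478 and 507 in the control tumors and 1347, 1468 and 1625 in the FF-10101 tumors, without overlap (1.16, SE 0.33, adjusted p = 0.229), and *Cxcr4* was at 521 ± 105 and 770 ± 135 (SD, n = 3; 0.57, SE 0.21, adjusted p = 0.260), also without overlap.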

How the data were processed

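Bulk RNA-seq of 3 control and 3 FF-10101 MCA205 tumors, grouped by the sample labels, was analysed. The authors trimmed reads with fastp (0.19.5), quantified them with Salmon (1.5.1) on GENCODE genes of GRCm39 and used DESeq2 (1.22.1). The deposited values are log2 values for each gene and tumor. Although no source names it, they match the variance-stabilizing form that the authors' DESeq2 can write. Its inverse gave whole reads for 100% of 325854 values (tolerance 1e-06). Since normalized values had been planned for, they were turned back into normalized counts (reads over the size factor). Limma (3.58.1, R 4.3.3) with a trend was run on log2(normalized count + 1), a scale that understates changes of low genes, where the mean reached 10, with Benjamini-Hochberg adjustment and a threshold of 0.05. Exact permutation tests on normalized counts were two-sided and cannot go below p = 0.1.

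Salmon estimates the source of reads that match several genes. Limits of 3 reads and counting errors cover counting only. Symbols (51484 of 54309 identifiers), transcript lengths and shared 31-base words came from GENCODE on GRCm38, which differs from the build behind the values. Promoters came from RefSeq GRCm38.p6, the entry with the lower start coordinate where a gene had 2.

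The 10 genes, the 7 pathway lists and the marker lists were chosen with earlier results of these data known. Named from the pathway lists were at most 4 genes per list whose groups did not overlap and a set of ligands, adaptors and cytokine partners of the 10, and, as most similar, the 8 genes outside the lists with the highest correlation. *Gzma*, *Gzmb*, *Ifng*, *Id2*, *Xcl1*, *Ikzf2*, *Csf1r*, *Col1a1*, *Itga1* and other markers named singly were chosen after their values were seen. The 17 alternatives were pseudocounts of 0.5 and 10, no filter, a minimum mean of 50, 75th percentile scaling, quantile normalization, no trend, limma-voom, array weights, a replicate block, leaving out each tumor and, added after the data were seen, direct use of the deposited log2 values. The limma step alone was tested on simulated reads. No simulated tumor stood apart from its group, so that test does not cover the case of Control 1.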

Additional observations from a re-analysis of the deposited data

How the results depend on the processing

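Limma called 6 genes with all tumors, 17 without a filter, 3 with a mean of at least 50, 8365 with array weights and 1 with the replicate number as a block, and between 1 (without Control 2) and 3051 (without Control 1) when a tumor was left out. Of the 10 NK genes it called 0, 10 with array weights (32.0% of all genes were called higher there, and the weights were 0.139, 5.39 and 0.475 for Control 1 to 3 and 0.406, 8.08 and 0.859 for FF-10101 1 to 3, so that fit rests mostly on 1 tumor per group) and between 0 and 9 when a tumor was left out, the 9 without Control 1. The median log2 fold change of the 10 genes stayed above 0 throughout, from 0.42 without Control 3 to 1.42 without Control 1. With a tumor left out, *Klrd1* ranged from -0.12 (without FF-10101 3) to 0.45 and was also below 0 without Control 2 (-0.0092), Control 3 (-0.06) and FF-10101 2 (-0.01), and *Tbx21* ranged from -0.033 (without Control 3) to 1.24 (without Control 1). The other 8 genes kept a log2 fold change above 0 under all 17 alternatives. The cause of these changes was not tested.

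Control and FF-10101 tumors share only a replicate number. The correlations of same-numbered tumors' deviations from their group means were -0.288, -0.0397 and -0.277, no tumor correlated best with its own number, and with the replicate block 0 of the 10 NK genes were called. The 10 genes had 32 to 2592 reads in a tumor, and whether depth or the number of tumors limits these comparisons more was not tested.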
